A study of Mus musculus with 17 samples.

Results

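The 10 genes described here encode proteins of neutrophil granules or of their release, and were taken from the deposited table of 38087 genes by their symbols. Each stood on 1 row of that table. Mpo, Elane, Prtn3 and Ctsg encode proteins of azurophil (primary) granules, Ltf, Camp, Lcn2 and Ngp proteins of specific (secondary) granules, Padi4 an enzyme that modifies histones when chromatin is released, and Lyz1 a lysozyme. RNA was sequenced from cells sorted out of the tibialis anterior of DBA/2J mice, all male and 3 months old, while the muscle regenerated from an injection of cardiotoxin, which destroys muscle fibres. The 17 samples form 6 groups, namely day 1 neutrophils (2 samples), Ly6C high macrophages of day 1, of day 2 and of day 4, and Ly6C low macrophages of day 2 and of day 4 (3 samples in each). All groups share the strain, sex, age, muscle and injury, and an uninjured group was not analysed here. How the sorts were gated, and whether the samples of a group came from separate or pooled animals, is not stated in the labels.

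Neutrophils carry ready-made antimicrobial proteins in granules that form one after another while the cell matures in bone marrow. Azurophil proteins such as myeloperoxidase and the serine proteases are transcribed early, in promyelocytes, specific granule proteins later, in myelocytes and metamyelocytes, and gelatinase granules last. A neutrophil that has reached a tissue therefore holds granule proteins whose messenger RNA was largely made, and largely lost, before it left the marrow. Several of these genes are also transcribed by monocytes, macrophages or mast cells, and the C/EBP family and PU.1 are known regulators of myeloid promoters.

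The table gives 1 value per group, the authors' log2 normalised reads, and none for single samples. No value below has an error, no difference has a replicate check, and whether a difference is larger than the spread between samples is unknown. From the steps of the lowest values, 1 read was worth 0.412 to 1.03 normalised reads in a library, so that 31.2 to 77.6 reads in a library give a log2 value of 5. A gene listed at 0 had at most 0 to 2 reads in a library, depending on the library. Of the 14 member values above 0 and under 1.2, 9 equal whole reads on this reading and 5 do not, and read numbers are given only for the former. A gene was compared between a pair of groups where it reached 5 in at least 1 of them, and counted as apart at 1 or more on the log2 scale, which is 2-fold. Of the 60 values of the 10 genes, 47 lay under 5 and 9 were listed at 0, so only Prtn3, Ltf, Lcn2, Padi4 and Lyz1 ever entered a comparison. These samples are bulk sorts, in which fewer cells of a type and less RNA per cell cannot be told apart.

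The neutrophil column carried the marker genes of neutrophils together with those of macrophages. Ly6g, the surface marker that defines mouse neutrophils, was at 3.48 there, which is under 5, and listed at 0 in the 5 macrophage groups. Of 20 mature neutrophil genes, 17 were highest in the neutrophil column, among them the calprotectin subunit S100a9 at 15.49 and the chemokine receptor Cxcr2 at 12.37. The macrophage genes Csf1r and Emr1 (Adgre1 in current nomenclature) stood at 13.27 and 12.22 in that column, and all 11 macrophage genes of the list were at 5 or above in all 6 groups. The summed level of the 20 neutrophil genes on the log2 scale was 18.43 in neutrophils, 16.83, 15.98 and 14.74 in Ly6C high cells of days 1, 2 and 4, and 14.81 and 13.82 in Ly6C low cells of days 2 and 4.

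The promoters of the members were searched for 2 short cores known from myeloid genes, and are shown here because members with different levels can be read side by side. All 10 members matched a RefSeq entry on GRCm38.p6 by symbol. The 250 bases before the RefSeq start were searched on both strands for the C/EBP core TTGCNNAA and the PU.1 core GAGGAA. The C/EBP core was present in 4 of the 10 members (Ltf, Lcn2, Ngp and Lyz1), against 9.56% of 32851 promoters of the same length. The PU.1 core was present in 6 of 10 (Mpo, Elane, Prtn3, Ctsg, Ltf and Lcn2), against 23.3%. Both matches of Lcn2 lie in annotated exons of Lcn2, which cover 197 of the 250 bases of its window. Of 2 general patterns searched in the same way, the kappa B pattern was in 5 of 10, against 45.8%, and TATAAA in 2 of 10, against 12.4%. Below are the stretches of these windows that lie outside annotated exons (GENCODE M21), 5' to 3' on the gene's strand, for the specific granule genes Ltf (chr9:111019042-111019270, plus strand) and Ngp (chr9:110419558-110419746, plus strand), for the azurophil genes Prtn3 (chr10:79879417-79879613, plus strand) and Ctsg (chr14:56102575-56102824, minus strand), and for Lyz1 (chr10:117292869-117293118, minus strand). Capitals mark either core.
Ltf: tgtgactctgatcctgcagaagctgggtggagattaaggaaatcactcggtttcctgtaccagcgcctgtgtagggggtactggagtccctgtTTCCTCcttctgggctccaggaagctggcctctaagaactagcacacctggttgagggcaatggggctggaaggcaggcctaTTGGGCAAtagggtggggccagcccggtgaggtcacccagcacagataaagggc
Ngp: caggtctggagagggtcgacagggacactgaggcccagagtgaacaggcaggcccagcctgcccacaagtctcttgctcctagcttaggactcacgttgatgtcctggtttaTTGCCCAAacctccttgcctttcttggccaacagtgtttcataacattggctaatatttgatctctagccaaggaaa
Prtn3: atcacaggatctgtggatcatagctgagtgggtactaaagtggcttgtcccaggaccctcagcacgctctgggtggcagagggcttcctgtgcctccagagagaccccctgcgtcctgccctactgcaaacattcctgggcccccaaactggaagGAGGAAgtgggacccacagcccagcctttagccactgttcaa
Ctsg: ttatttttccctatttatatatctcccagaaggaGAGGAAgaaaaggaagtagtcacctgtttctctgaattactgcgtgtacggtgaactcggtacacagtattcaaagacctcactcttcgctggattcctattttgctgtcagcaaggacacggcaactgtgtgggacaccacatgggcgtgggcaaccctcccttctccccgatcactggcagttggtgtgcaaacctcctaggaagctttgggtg
Lyz1: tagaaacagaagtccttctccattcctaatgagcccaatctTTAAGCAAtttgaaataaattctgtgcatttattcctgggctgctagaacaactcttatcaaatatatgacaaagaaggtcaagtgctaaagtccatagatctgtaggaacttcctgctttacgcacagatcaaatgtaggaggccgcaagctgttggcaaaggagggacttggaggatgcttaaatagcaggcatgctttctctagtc

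The Ltf stretch holds both cores, with the C/EBP match 75 to 68 and the PU.1 match 157 to 152 bases before the start. Ngp holds a C/EBP match 138 to 131 bases before its start, and a further match 11 to 4 bases before it lies in an annotated exon and is not shown. Prtn3 and Ctsg hold the PU.1 core alone, at 95 to 90 and 216 to 211 bases, and Lyz1 the C/EBP core alone, at 209 to 202 bases. A match is a stretch of letters and not a measured binding site, and the members without a match say nothing about either factor.

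**Figure D1:**
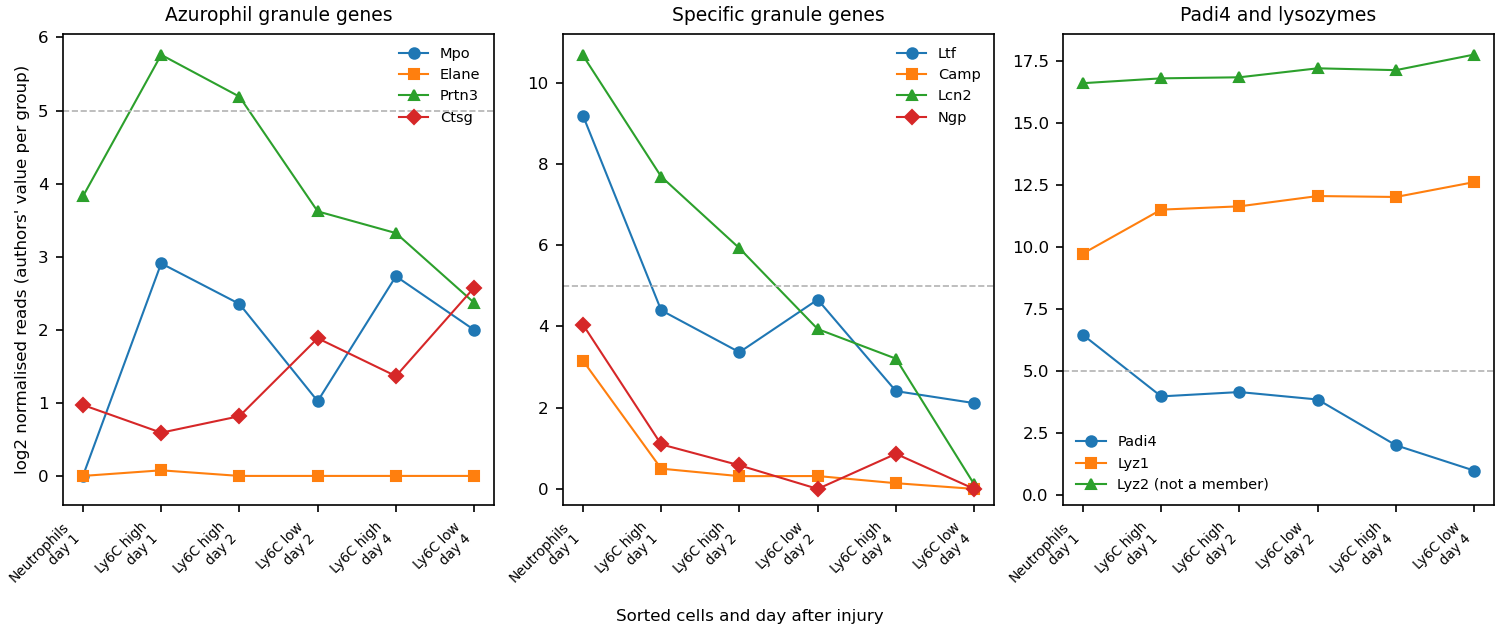
Authors' log2 normalised reads (vertical axes, which differ in scale) of the 10 members and of Lyz2 in the 6 groups (horizontal axis). Each point is 1 group value with no error, lines only join the points of a gene, and the dashed line marks 5; the specific granule genes and Padi4 stand highest in neutrophils, Prtn3 in Ly6C high cells of day 1, and Lyz1 in Ly6C low cells of day 4.

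Among the azurophil members, none was highest in the neutrophil column. Mpo (chromosome 11, 87793581 to 87804413, GRCm38) encodes myeloperoxidase, which makes hypochlorous acid. It was listed at 0 in the neutrophil column, and stood at 2.91, 2.35 and 2.73 in the Ly6C high sort of days 1, 2 and 4, and 1.02 and 2.00 in the Ly6C low sort of days 2 and 4. The 3 Ly6C high values thus all lay above both Ly6C low values and above the neutrophil value, but none reached 5. The highest of them equals 7.51 normalised reads on the linear scale. Lpo, the lactoperoxidase gene next to Mpo, was listed at 0 in 4 groups and at 0.19 and 0.27 in Ly6C high and Ly6C low cells of day 4, and the eosinophil peroxidase gene Epx was listed at 0 in all 6.

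Elane (chromosome 10, 79886247 to 79888215), which encodes neutrophil elastase, was in effect undetected. It was listed at 0 in 5 groups, neutrophils included, and at 0.08 in Ly6C high cells of day 1. That value equals 2 reads in 1 library, and 183 genes share it exactly. Among the 10 other azurophil and promyelocyte genes of the list, Bpi was listed at 0 in all 6 groups and Ms4a3 at 0 in all but the day 1 Ly6C high sort, where it was at 0.38. The list was not low as a whole, since 4 to 6 of the 10 were at 5 or above in each group. Srgn, which encodes the granule proteoglycan serglycin, was at 15.19 in neutrophils, Igsf6 at 13.37 and Cd63, a membrane protein of azurophil granules, at 11.13.

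Prtn3 (chromosome 10, 79874476 to 79883174), the gene of proteinase 3, lies next to Elane and was the only azurophil member to reach 5. It was at 3.83 in the neutrophil column, 5.76, 5.19 and 3.32 in the Ly6C high sort of days 1, 2 and 4, and 3.62 and 2.37 in the Ly6C low sort of days 2 and 4. Ly6C high cells of days 1 and 2 were the high groups, and the other 4 lay between 2.37 and 3.83. On day 1 it was 1.94 higher in Ly6C high cells than in neutrophils (3.83-fold). Within Ly6C high cells the difference was -0.57 from day 1 to day 2 and -1.87 from day 2 to day 4, and 0.316% of the genes compared had a more negative difference in the latter pair. On day 2 the difference of Ly6C low from Ly6C high cells was -1.57. The annotated gene overlaps BC005764, which stood between 6.27 and 7.13 in all 6 groups, and how reads were divided between them is not known from the labels.

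The pattern nearest to Prtn3 over the 6 groups was that of Cebpe, which encodes a C/EBP factor known for its part in late granulocyte maturation. Likeness was the distance between profiles centred on each gene's mean, in log2 units, among 13041 gene symbols that reached 5 in any group, a symbol on several rows being taken at its row of highest mean. Cebpe lay at a distance of 0.49, followed by Piwil2 at 0.52 and the spermine oxidase gene Smox at 0.59. Cebpe itself was at 5.53 in the neutrophil column, 7.49, 6.45 and 5.04 in the Ly6C high sort of days 1, 2 and 4, and 5.15 and 4.27 in the Ly6C low sort. Gfi1, a repressor known from early granulocyte precursors, had another order, with 4.23 in the neutrophil column, 2.43, 2.02 and 3.09 in the Ly6C high sort, and 1.43 and 0.63 in the Ly6C low sort.

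Ctsg (chromosome 14, 56099881 to 56102574), the gene of cathepsin G, was under 5 in every group, and its lowest values rested on a few reads. It was at 0.97 in the neutrophil column, 0.59, 0.82 and 1.37 in the Ly6C high sort of days 1, 2 and 4, and 1.88 and 2.58 in the Ly6C low sort of days 2 and 4. The neutrophil value equals 4 reads in 1 of the 2 libraries, and the day 1 Ly6C high value 3 reads in each of 2 libraries. The order of the groups was unlike that of any other azurophil member, with both Ly6C low groups on top. Under quantile normalization of the columns its differences of Ly6C high day 1 from neutrophils, of Ly6C high day 4 from days 1 and 2, and of Ly6C low day 4 from day 2 changed sign, while both Ly6C low groups were again the highest, at 2.44 and 2.26.

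Ctsg sits in the chymase locus, where mast cell proteases are its neighbours. Of the next genes, Mcpt4, a mast cell chymase, was at 2.87 in the neutrophil column, 0.60, 2.13 and 3.19 in the Ly6C high sort, and 4.62 and 6.26 in the Ly6C low sort of days 2 and 4. Mcpt8, which lies between Mcpt4 and Ctsg, had another order and stayed near 0. It was highest in Ly6C high cells of day 4, at 0.97, against 0.73 and 0.80 in the Ly6C low sort of days 2 and 4. Gzme and Gzmd, on the other side, were listed at 0 in all 6 groups. Of the 9 mast cell and basophil genes listed, 6 were highest in Ly6C low cells of day 4, where the chymase Cma1 was at 7.26, carboxypeptidase Cpa3 at 6.23 and the tryptase Tpsb2 at 5.17. Their summed level was 5.08 in neutrophils, 4.07, 4.83 and 6.25 in Ly6C high cells of days 1, 2 and 4, and 6.83 and 8.56 in Ly6C low cells of days 2 and 4, which is the order of groups that Ctsg shows. Prss34 was listed at 0 in all groups, and Ms4a2, a chain of the IgE receptor, was at most 0.36. The part of mast cells in the Ctsg values was not tested.

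**Figure D2:**
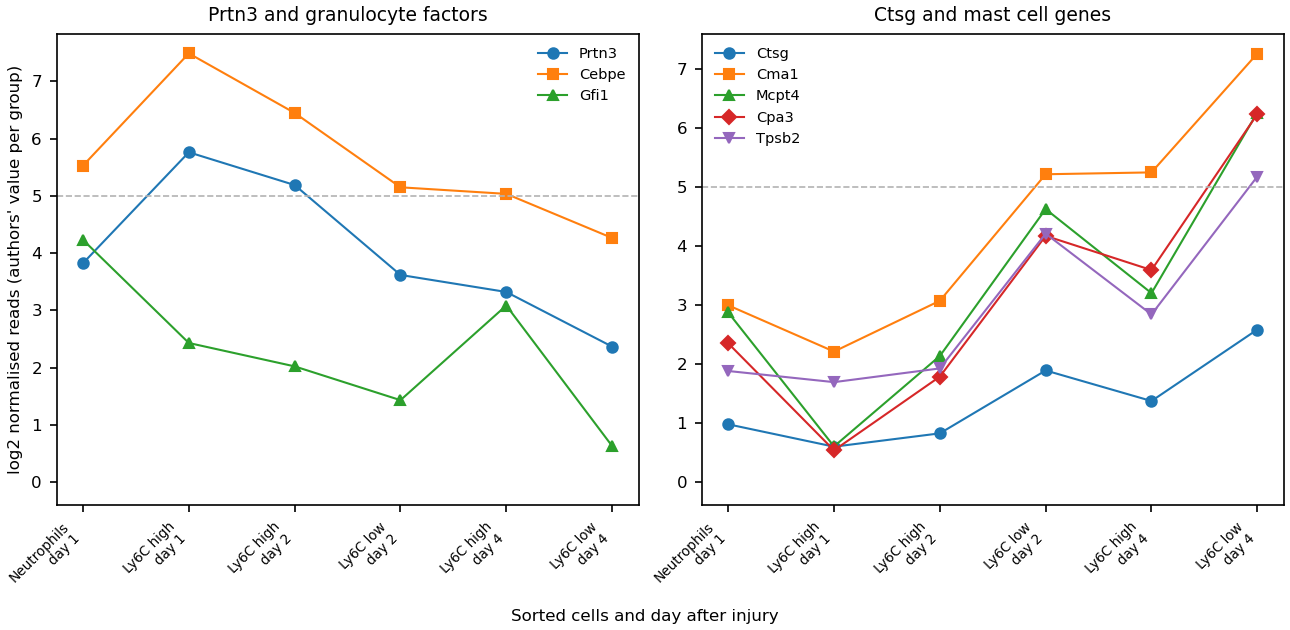
Authors' log2 normalised reads (vertical axes) over the 6 groups for Prtn3 with the transcription factor genes Cebpe and Gfi1 (left), and for Ctsg with 4 mast cell genes (right). Points are single group values without error and the dashed line marks 5; Prtn3 and Cebpe share the order of the 6 groups from day 1 Ly6C high at the top (5.76 and 7.49) to day 4 Ly6C low at the bottom (2.37 and 4.27), while Ctsg and the mast cell genes are highest in day 4 Ly6C low cells.

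All 4 specific granule members were highest in neutrophils. Ltf (chromosome 9, 111019271 to 111042767) encodes lactoferrin, an iron-binding protein. It was at 9.19 in the neutrophil column, 4.40, 3.37 and 2.41 in the Ly6C high sort of days 1, 2 and 4, and 4.66 and 2.11 in the Ly6C low sort of days 2 and 4. Neutrophils stood far above the 5 macrophage groups, none of which reached 5. On day 1 Ltf was 27.8-fold lower in Ly6C high cells than in neutrophils (a log2 difference of -4.80), and 0.892% of the genes compared had a more negative difference.

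Lcn2 (chromosome 2, 32384633 to 32388252), the gene of lipocalin 2, a protein that captures bacterial iron carriers, had the widest range of the members. It was at 10.67 in the neutrophil column, 7.69, 5.93 and 3.21 in the Ly6C high sort of days 1, 2 and 4, and 3.94 and 0.11 in the Ly6C low sort of days 2 and 4. The lowest value equals 3 reads in 1 library, and 145 genes share it. Lcn2 was lower in Ly6C high cells of day 1 than in neutrophils by a log2 difference of -2.98 (7.91-fold), lower on day 2 than on day 1 by -1.76, and lower on day 4 than on day 2 by -2.72. In that last pair 0.0729% of the genes compared had a more negative difference. On day 2 Ly6C low cells differed from Ly6C high cells by -1.99. On day 4 both values lay under 5, so that pair was not compared.

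Ngp (chromosome 9, 110419747 to 110423012) encodes neutrophilic granule protein, a relative of the cathelicidins and cystatins. It was at 4.05 in the neutrophil column, 1.10, 0.58 and 0.86 in the Ly6C high sort of days 1, 2 and 4, and listed at 0 in both Ly6C low groups. The day 4 Ly6C high value equals 9 reads in 1 library, with the other libraries of that group at or under their floor. Camp (chromosome 9, 109847379 to 109849617), the cathelicidin gene, was at 3.16 in the neutrophil column, 0.50, 0.31 and 0.14 in the Ly6C high sort, at 0.32 in Ly6C low cells of day 2 and at 0 in those of day 4. Its day 4 value in Ly6C high cells equals 2 reads in 1 library, and 315 genes hold it. The day 2 value in Ly6C high cells equals 3 reads in 1 library, but Camp alone holds it, so that reading is less sure. Both genes were higher in neutrophils than in any macrophage group, and under 5 in every group.

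The specific granule members differed in their order over the macrophage groups. In Ly6C low cells of day 2, Ltf was higher than in Ly6C high cells of the same day by 1.30, whereas Lcn2 was lower; the Ltf values were under 5 in both. S100a9 and Cxcr2, 2 of the neutrophil genes, were also higher in Ly6C low cells on day 2, at 8.97 against 7.36 and at 5.46 against 4.64. S100a8 was at 7.87 against 7.59. Over the whole list of 20 neutrophil genes, 16 could be compared in that pair, of which 2 were higher and 6 lower by 2-fold or more, with a median difference of 0.01. The part of neutrophil RNA in the macrophage values was not tested.

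By pattern, Ltf lay nearest to Niacr1 at a distance of 0.91, followed by 4930431P03Rik at 1.23, the itaconate enzyme gene Irg1 at 1.24 and the histidine decarboxylase gene Hdc at 1.29. The genes nearest to Lcn2 lay farther off, with the formyl peptide receptor Fpr1 at 2.54 and the cytokine subunit Il23a at 2.59. Among the 5 members that reached 5, the closest pair was Ltf and Padi4 at 2.58 and the farthest Lcn2 and Lyz1 at 10.3. The 2 genes on each side of a specific granule member on the chromosome varied less over the 6 groups than that member did. Ccrl2 beside Ltf and Mtap4 beside Camp were also highest in neutrophils, Mtap4 at 11.24 against 10.45 to 10.75 in macrophages. Ccrl2, a chemokine-binding receptor gene that follows Ltf, was at 14.59 in neutrophils and between 12.35 and 12.96 in macrophages, Lrrc2 and Rtp3 before it reached at most 0.67 and 2.76, and Ptpn23 and Klhl18 beside Ngp varied by less than 1 over the 6 groups. Around all 10 members stood 36 neighbours that are no members, of which 24 reached 5 in a group. Of these 24, 12 varied by less than 1 over the groups and 3 were highest in neutrophils.

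Padi4 (chromosome 4, 140745865 to 140774236) encodes peptidylarginine deiminase 4, which converts histone arginines to citrulline and is known for its part in neutrophil extracellular traps. It was at 6.46 in the neutrophil column, 3.98, 4.16 and 2.01 in the Ly6C high sort of days 1, 2 and 4, and 3.86 and 0.99 in the Ly6C low sort of days 2 and 4. Neutrophils were the only group above 5, the 3 macrophage groups of days 1 and 2 lay within 0.30 of each other, and both day 4 groups were lower. On day 1 Padi4 was lower in Ly6C high cells than in neutrophils by a difference of -2.48 (5.58-fold). Its relative Padi2 was at 6.31 in neutrophils, 4.93 in the day 1 Ly6C high sort, and 6.25 and 6.13 in the day 4 groups, where Padi4 was lowest. Padi1, Padi3 and Padi6, neighbours of Padi4, reached at most 0, 1.83 and 0.75. Among the 5 nearest patterns were those of AC122562.1 at 1.17 and the transporter gene Slco4a1 at 1.20.

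Lyz1 (chromosome 10, 117287797 to 117292868) was the member with the highest values in macrophages. This lysozyme, which cleaves bacterial cell walls, was at 9.75 in the neutrophil column, 11.51, 11.65 and 12.02 in the Ly6C high sort of days 1, 2 and 4, and 12.06 and 12.62 in the Ly6C low sort of days 2 and 4. Neutrophils were the lowest group, and on each day with both sorts the Ly6C low value was the higher. On day 1 it was 1.77 higher in Ly6C high cells than in neutrophils (3.41-fold). Lyz2, the neighbouring gene of the main myeloid lysozyme, was at 16.61 in the neutrophil column, 16.81, 16.85 and 17.14 in the Ly6C high sort, and 17.21 and 17.77 in the Ly6C low sort. Of the 50-base words of Lyz1 transcripts, 16.1% also occur in Lyz2, so reads may have been divided between them, and the Lyz1 values are uncertain for that reason. The difference between Ly6C high cells and neutrophils on day 1 was 1.77 for Lyz1 and 0.19 for Lyz2. The patterns nearest to Lyz1 were those of 9030025P20Rik at 0.32, Gm2810 at 0.36 and the Fc receptor gene Fcgrt at 0.44.

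Between Ly6C high cells and neutrophils on day 1, 5 members were compared. Prtn3 and Lyz1 were at least 2-fold higher, against 16.6% of the 11890 genes compared, and Ltf, Lcn2 and Padi4 at least 2-fold lower, against 16.1%. The median of the 5 was -2.48, and that of all genes 0.08. Apart from the members, 15 of 19 mature neutrophil genes were at least 2-fold lower and 1 higher, with a median of -4.05. Lists of the other granule genes were divided. Of 12 other specific granule genes 2 were higher and 3 lower (median 0.05), of 11 gelatinase granule and vesicle genes 2 and 4 (median 0.13), and of 5 other azurophil genes 1 and 2 (median -0.78). Of 9 classical monocyte genes 7 were higher.

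**Figure D3:**
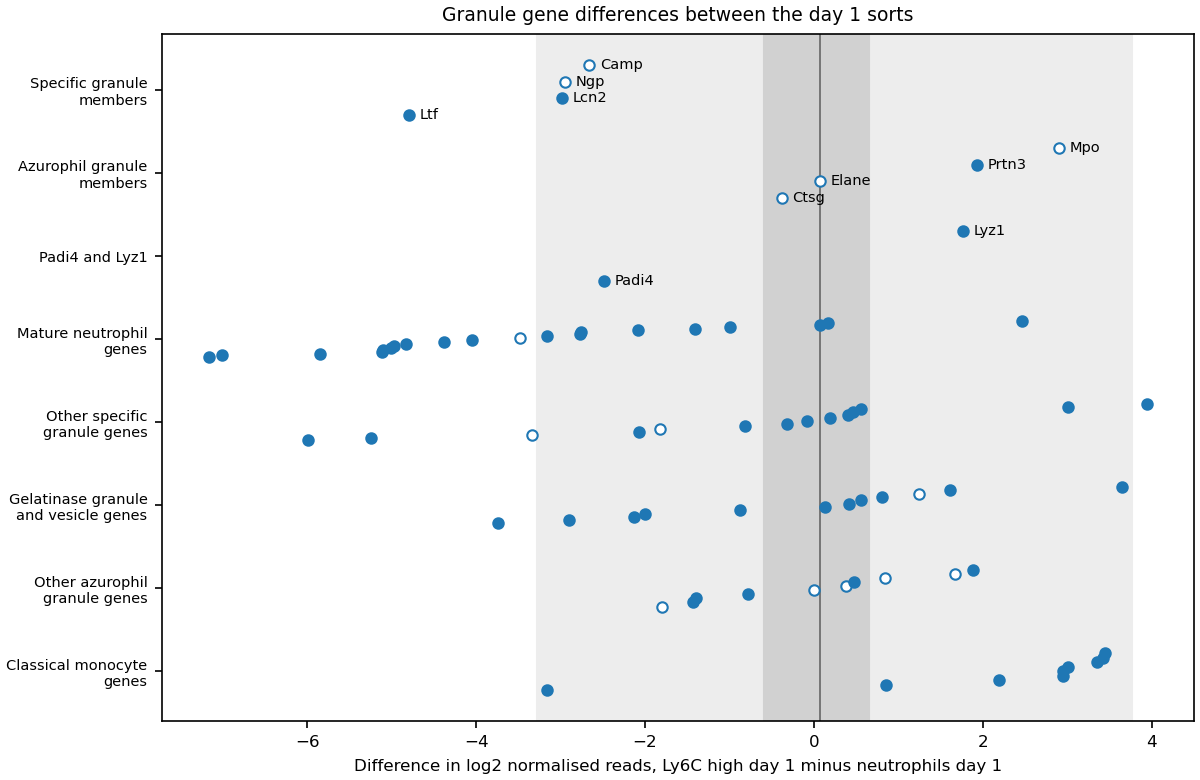
Differences in log2 normalised reads, Ly6C high cells minus neutrophils on day 1 (horizontal axis), for the members and 5 other gene lists (vertical axis, 1 point a gene, spread within a list only to separate points). Open points are genes under 5 in both groups, the dark band holds the middle of all genes compared (25th to 75th percentile, -0.59 to 0.65) and the light band the 2.5th to 97.5th percentile (-3.28 to 3.77); the 4 specific granule members and Padi4 lie left of the dark band, and Prtn3, Mpo and Lyz1 right of it.

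Within Ly6C high cells 3 members, Prtn3, Lcn2 and Lyz1, were compared. From day 1 to day 2, Lcn2 was at least 2-fold lower, against 1.1% of all genes compared, and none was higher, against 1.41%. From day 2 to day 4, Prtn3 and Lcn2 were lower, against 2.0%, and none higher, against 14.3%. From day 1 to day 4 the same 2 genes were lower, against 3.97%, and none higher, against 17.6%, and the medians of the 3 were -0.57, -1.87 and -2.44 in these 3 pairs, which share groups. All-gene medians were -0.01, 0.01 and 0.01. Under quantile normalization the share of higher genes among all those 2-fold apart went from 87.7 to 66.4% between days 2 and 4 and from 81.6 to 62.5% between days 1 and 4. In the same cells fibroblast genes were higher on day 4, with a summed level of 15.84 against 8.66 on day 1 and 10.36 on day 2, and endothelial genes were at 12.42 against 10.07 and 9.74. Their part in the lower granule values of day 4 was not tested.

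Between Ly6C low and Ly6C high cells on day 2, Prtn3 and Lcn2 were at least 2-fold lower, against 4.03% of genes, none was higher, against 3.71%, and Lyz1 differed by 0.41. The median of these 3 was -1.57, and that of all genes -0.03. On day 4 Lyz1 alone was compared, at 0.60, so no member was higher or lower, where 2.44 and 8.93% of all genes were. From day 2 to day 4 in Ly6C low cells Lyz1 alone was compared again, at 0.56, where 9.23% of all genes were higher and 2.16% lower. Under quantile normalization the shares of higher genes among all those apart went from 21.4 to 36.8% in the day 4 pair and from 81.1 to 68.8% in the Ly6C low pair. The other members were under 5 in both groups of these 2 pairs. Among them Lcn2 was at 0.11 in Ly6C low cells of day 4 against 3.21 in Ly6C high cells of that day, and Padi4 at 0.99 against 2.01.

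Other granule genes, from lists drawn up with earlier results of these data known, did not all share the profile of Ltf and Lcn2. Olfm4 and Ceacam10, genes of late granulocyte maturation, reached 5 in neutrophils alone, at 9.75 and 5.91, against at most 3.75 and 0.67 in macrophages. Itgb2l was under 5 in every group, at 3.34 in neutrophils and listed at 0 in macrophages. The collagenase gene Mmp8 was at 9.30 in the neutrophil column, 9.21, 8.76 and 6.68 in the Ly6C high sort, and 8.56 and 7.75 in the Ly6C low sort. Cd177, a neutrophil surface protein that binds proteinase 3, was at 5.98 in the neutrophil column, 9.92, 10.23 and 8.50 in the Ly6C high sort, and 7.39 and 4.88 in the Ly6C low sort. Like Prtn3, it stood highest in Ly6C high cells. Chi3l3, the table's symbol for Chil3, a chitinase-like protein gene of monocytes and neutrophils, was at 7.24 in the neutrophil column and 10.24, 9.36 and 7.88 in the Ly6C high sort. Ctsc, which encodes the protease that activates the azurophil serine proteases, was at 12.63 in neutrophils and 14.52 in Ly6C high cells of day 1.

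**Figure D4:**
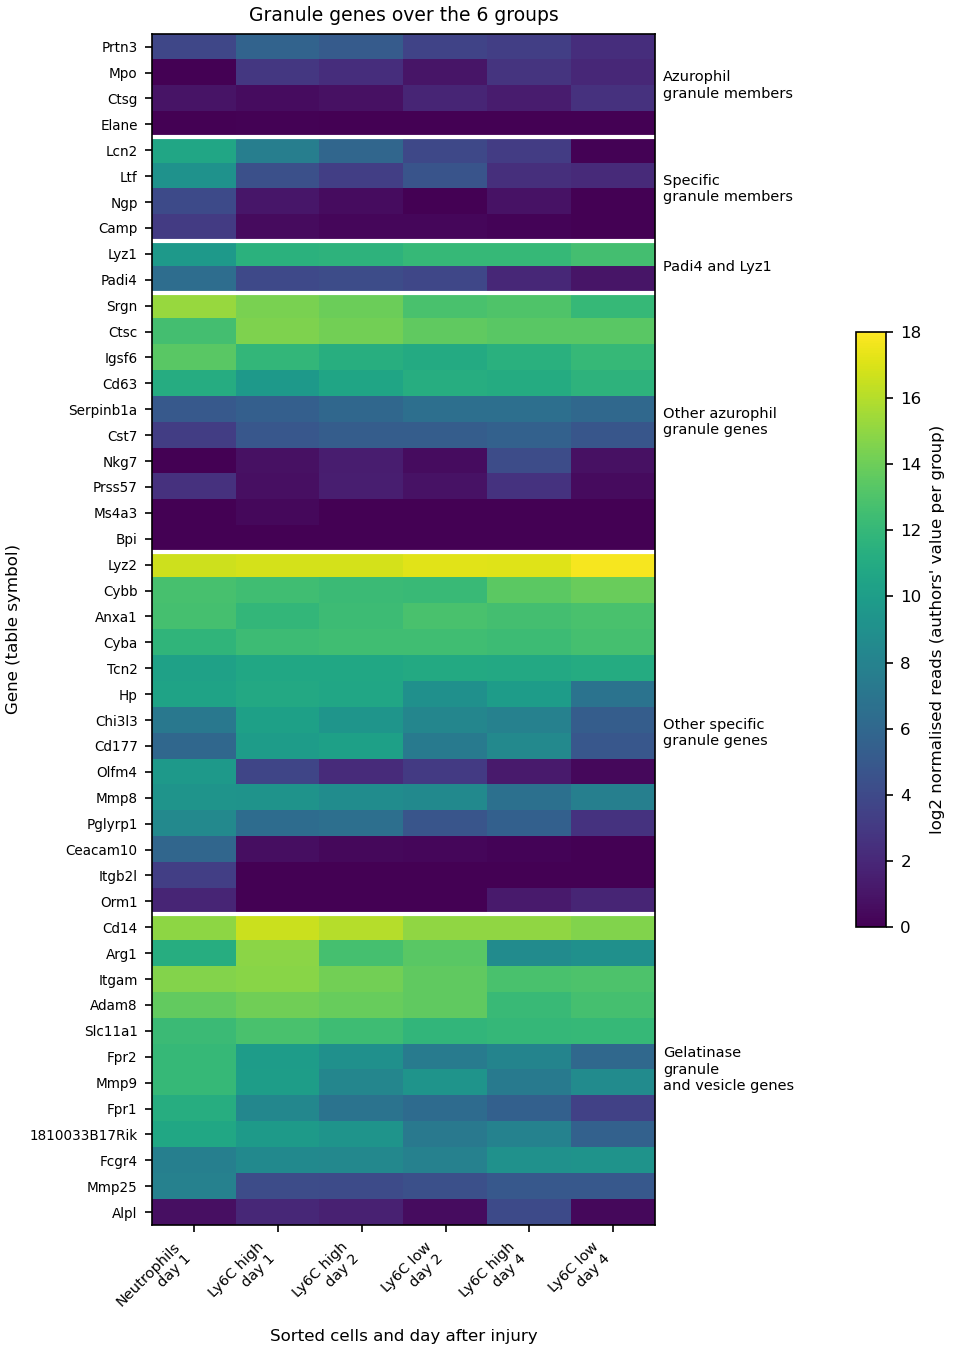
Colour shows the authors' log2 normalised reads for the 10 members and 36 other granule genes (vertical axis, in 6 blocks by granule class, named on the right) in the 6 groups (horizontal axis). In the blocks of specific granule members and of other specific granule genes, Ltf, Lcn2, Olfm4 and Ceacam10 are brightest in the neutrophil column, while Cd177 and Chi3l3 are brightest in Ly6C high cells.

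The listed genes of protease inhibitors were divided in the same way. Stfa1 and Stfa2, genes of stefins found in neutrophils, were at 6.97 and 6.98 in neutrophils and at most 0.80 and 0.72 in macrophages. Slpi, an inhibitor of elastase and cathepsin G, was at 9.25 in the neutrophil column, 11.72, 10.22 and 8.92 in the Ly6C high sort, and 8.47 and 5.98 in the Ly6C low sort. Serpinb1a, another inhibitor of these proteases, was at 4.99 in neutrophils and between 5.47 and 6.58 in macrophages. Of the 8 inhibitor genes compared on day 1, 2 were at least 2-fold higher and 4 lower in Ly6C high cells than in neutrophils.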

How the data were processed

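The labels describe 17 RNA libraries, and the deposited table has 1 column for each of 6 groups. Its values are log2 normalised reads as deposited by the authors, with no value below 0. They were read as a mean over samples of the log2 of reads times a constant, with values under 1 set to 1, since 44.1 to 63.9% of the values between 0 and 1 equal whole reads of 1 or more libraries on that reading, within a relative tolerance of 1e-05; the others were not explained. Of the values that equal 2 to 21 reads in a single library, 92.7% were at even numbers in 1 neutrophil library, 58.8 to 78.7% in 10 other libraries and 20.6 to 39.3% in 6. Reads may have been counted in pairs in part of them, and independent reads would then be fewer than stated. The submitters' processing notes name TopHat2 2.0.7, Cufflinks 2.0.2 and the mm10 build, with no role. Not given in the sources used here were annotation and normalization.

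The 10 members and the other 22 gene lists were chosen with earlier results of these data known. The naming rule takes all members, genes of the lists by role, the 5 genes nearest in pattern and the 2 genes on each side of a member. Neighbours, list genes and pattern genes are named only in part, and the neighbours also counted; 1 gene near in pattern is not reported here. Listed symbols missing from the table were found by gene identifier for 9 genes. There were 7 comparisons. Limma on single samples, leaving out replicates and replicate blocks could not be run on 1 column per group, so differences are sizes without a test. Coordinates are from GENCODE M21 on GRCm38, which holds 36308 of the 38087 identifiers. Alternatives were other filters, folds, pseudocounts and scalings, and the sum over the rows of a symbol. The scripts (Python 3.11.15, pandas 2.3.3, numpy 2.4.6, matplotlib 3.10.9) were tested on simulated data.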

Additional observations from a re-analysis of the deposited data

How the results depend on the processing

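Of 187 results under alternative settings, 153 kept their direction and stayed within 1.5 times the reported value, among them all those under pseudocounts of 1 and 8 and under median-ratio rescaling. Of the 110 counts among these, 5 changed, by 1 member each, and under quantile normalization the median for Ly6C high day 4 against day 1 was -3.53. The 153 include all results with the rows of a symbol summed, which could not change because each member stands on 1 row. They also include counts for pairs in which Lyz1 alone was compared. The number of members highest in neutrophils, 5, was the same under both scalings. Adding a pseudocount or summing the rows of a symbol cannot change that number. The filter on low values mattered most, since it decides which members are compared.

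With no filter the median difference was -1.43 for Ly6C high day 1 minus neutrophils, -0.35 for Ly6C high day 2 minus day 1, -0.30 for day 4 minus day 1, -0.087 for day 4 minus day 2, -0.15 for Ly6C low minus high on day 2, and turned to -0.52 on day 4 and to -0.16 for Ly6C low day 4 minus day 2. Members lower then numbered 5, 2 and 4 in Ly6C high day 1 against neutrophils, Ly6C high day 2 against day 1 and day 4 against day 1. They numbered 2 in Ly6C low against high on day 4 and 4 in Ly6C low day 4 against day 2. Of all 38087 genes, 5138, 391, 716, 2624 and 455 were lower in these 5 pairs. Members higher were 2 and 1 in Ly6C low against high on days 2 and 4, against 895 and 639 of all genes. With a minimum of 3 the medians were -0.30 in Ly6C low against high on day 2, and turned to -0.95 on day 4 and to -2.55 for Ly6C low day 4 against day 2. Members lower were then 5, 2, 4, 1 and 4 in the same 5 pairs. Of all genes compared, those lower were 2890 of 14570, 208 of 13701, 585 of 15062, 1766 of 15134 and 334 of 14360. In Ly6C low against high on day 2, 1 member was higher, against 650 of 13811 genes. With a minimum of 7 only Lcn2 and Lyz1, or Lyz1 alone, were left within macrophages. The medians turned to 0.38 for Ly6C high day 4 against day 2 and to 0.41 for Ly6C low against high on day 2. Both pairs had 0 members lower, against 199 of 9034 and 262 of 8568 of all genes compared. In Ly6C high day 4 against day 1, 1 member was lower, against 406 of 9073 genes. On day 1 against neutrophils 1 member was higher, against 1397 of 8786 genes. At 4-fold, 0 members were higher on day 1 against neutrophils, against 1021 of all 11890 genes compared. In Ly6C high day 2 against day 1, 0 members were lower, against 20 of 11232 genes. In day 4 against day 2, 1 was lower, against 33 of 12348. In Ly6C low against high on day 2, 0 were lower, against 137 of 11482. Under quantile normalization the median for Ly6C high day 4 against day 2 was -2.93.

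Median-ratio rescaling moved the median of all genes by -0.15 on day 1, and quantile normalization by -0.11 there, -0.13 from day 2 to day 4 and -0.12 from day 1 to day 4 in Ly6C high cells. Quantile normalization also changed the sign of small differences of Mpo and Ngp (Ly6C high day 4 minus day 2, to -0.79 and -0.48) and of Ltf (Ly6C low minus high on day 4, to 0.25). Values under 5 rest on few reads, and the depth of a library is not known from group values. No paired analysis was possible because the table holds 1 column per group and none for single samples.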

Other observations

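Genes of iron handling and genes that bind or clear granule products were measured in the same groups. Slc40a1, which encodes the iron exporter ferroportin, was at 10.48 in the neutrophil column, 5.43, 5.05 and 7.59 in the Ly6C high sort of days 1, 2 and 4, and 6.27 and 9.03 in the Ly6C low sort of days 2 and 4. Slc22a17, which encodes a lipocalin 2 receptor, was at 0.99 or under in neutrophils and in the macrophages of days 1 and 2, and at 4.40 and 3.83 in Ly6C high and Ly6C low cells of day 4, where Lcn2 was lowest. Fpr2, a receptor that cathelicidin peptides engage, was at 12.07 in the neutrophil column, 9.95, 9.06 and 8.12 in the Ly6C high sort, and 7.46 and 6.11 in the Ly6C low sort. Lrp1, which takes up lactoferrin, lay between 14.41 and 14.81 in all 6 groups.

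Siglec5, the table's symbol for Siglecf, stood at 9.62 in neutrophils and between 3.15 and 5.06 in macrophages, while the eosinophil granule genes Epx and Prg3 were listed at 0 in every group. Pxdn, the peroxidase of basement membranes, was at 9.73 in Ly6C high cells of day 4, where the fibroblast and endothelial lists also had their highest summed levels, against 1.92 in neutrophils.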
